A study of Mus musculus with 6 samples.

Results

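Genes of vascular growth factor signalling were followed in organoids grown from mouse cochlear progenitor cells. The set holds the receptor genes Kdr, Flt1 and Tek and the ligand genes Vegfa, Vegfb and Vegfc, taken by symbol: 6 genes, each with a row among the 15016 genes of the deposited table. The set is defined by gene symbol, not by a threshold on a value, and was proposed with earlier results of these data known. RNA-seq compared 3 libraries from stiff hydrogels with 3 libraries from soft hydrogels, both of wild-type genotype and both on a GelMA-HA-RGD hydrogel (methacrylated gelatin, hyaluronic acid and an integrin-binding peptide). The organoids of both groups shared an expansion phase of 8 to 10 days with EGF, bFGF and IGF at 50 ng/mL each, CHIR99021 at 3 µM, valproic acid at 500 µM, the small molecule 616452 at 2 µM and a phosphorylated ascorbic acid. Both then received CHIR99021 at 3 µM, an inhibitor of the kinase GSK3, with LY411575 at 5 µM, a blocker of gamma-secretase and thereby of Notch activation, and were placed in their gels at that differentiation stage. No source used here gives the stiffness values, the time in the gels or the age of the animals. Whether replicates were separate cultures is not said in the labels, so each p-value measures the spread between libraries only, and that spread may be technical.

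VEGF ligands are secreted dimers that bind receptor tyrosine kinases on endothelial cells, the cells that line blood vessels. Vegfa encodes VEGF-A, the main signal for vessel growth, which binds both KDR (VEGFR2), the receptor that carries most of the growth signal, and FLT1 (VEGFR1), which binds VEGF-A tightly, signals weakly and acts largely as a decoy. VEGF-B and placental growth factor (Pgf) bind FLT1, and VEGF-C acts on FLT4 (VEGFR3) in lymphatic vessels and, once processed, on KDR. Tek encodes TIE2, the receptor of the angiopoietins, which keeps vessels stable. In the cochlea, capillaries of the stria vascularis support the endocochlear potential, and the receptor genes are also known outside endothelium in some progenitor cells.

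The promoters of the receptor genes are shown because Kdr and Flt1 were both lower in every stiff library, whereas Tek was not. Each run holds the 250 bases before the RefSeq start on the gene's own strand (build GRCm38.p6). Capitals mark GGGCGG, the GC box bound by Sp1 and Kruppel-like factors, or its reverse complement CCGCCC.
Kdr, chr5:75978456-75978705, minus strand: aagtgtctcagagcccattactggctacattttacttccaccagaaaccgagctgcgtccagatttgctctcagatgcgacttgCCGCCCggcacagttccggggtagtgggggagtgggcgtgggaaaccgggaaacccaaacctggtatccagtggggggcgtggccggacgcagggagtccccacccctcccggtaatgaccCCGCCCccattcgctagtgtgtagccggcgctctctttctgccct
Flt1, chr5:147726012-147726261, minus strand: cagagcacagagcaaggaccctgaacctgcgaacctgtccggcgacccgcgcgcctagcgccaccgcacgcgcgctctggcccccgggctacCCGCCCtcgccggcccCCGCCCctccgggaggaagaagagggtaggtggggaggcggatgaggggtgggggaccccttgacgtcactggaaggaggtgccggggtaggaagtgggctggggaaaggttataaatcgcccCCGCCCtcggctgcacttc
Tek, chr4:94739039-94739288, plus strand: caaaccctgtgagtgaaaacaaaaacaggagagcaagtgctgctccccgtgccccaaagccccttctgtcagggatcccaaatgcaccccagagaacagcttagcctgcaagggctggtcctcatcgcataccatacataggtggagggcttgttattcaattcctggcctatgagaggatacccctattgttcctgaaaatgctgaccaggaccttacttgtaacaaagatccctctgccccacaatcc
The GC box occurred 2 times in the Kdr window, 3 times in the Flt1 window and 0 times in the Tek window. The ligand genes, none of them called, held it as well, with 4 in the Vegfb window, 2 in the Vegfc window, and 2 and 1 in the Vegfa windows of the upstream and downstream RefSeq starts. It was found on either strand in 32.7% of the 32851 RefSeq windows of the same length. The GC content was 61.6% for Kdr, 70.4% for Flt1, 51.2% for Tek, 76.4% for Vegfb, 71.6% for Vegfc and 59.2% and 59.6% for Vegfa, against a median of 52.4% over all windows. CACCC, another core bound by Kruppel-like factors, occurred 1 time in each receptor window and in 52.0% of all windows. GGAA, the core bound by ETS factors, occurred 4, 4 and 2 times in the Kdr, Flt1 and Tek windows and in 93.4% of all windows. ACGTG, a form of the core bound by hypoxia-inducible factors, had 0 matches in the receptor windows, had 1 in the downstream Vegfa window and was found in 16.6% of all windows. That Vegfa window (46025164 to 46025413) lies inside the annotated gene, so its match is not upstream of the gene. GCGTG, the other form of the core, was not searched, and the printed Kdr and Flt1 windows hold it or its reverse complement. Motifs were searched on both strands, their matches could overlap, and a match is not a measured binding site.

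The libraries held 16108470 to 17899391 reads over the listed genes. Soft replicate 1 stood apart: on the first principal component, which carried 62.5% of the variance, it lay at -1.94, between the stiff libraries at 7.89 to 17.3 and soft replicates 2 and 3 at -16.1 and -18.9. Of 11780 genes tested with limma, 369 rose (3.13%) and 316 fell (2.68%) in stiff gels (Benjamini-Hochberg adjusted p under 0.05), together 5.81%. The authors' deposited table has 517 genes higher (3.44% of its genes) and 703 lower (4.68%) at q under 0.05, so lower calls outnumber higher calls there. Leaving out single libraries gave 65 calls without soft replicate 2, 210 without soft replicate 3, 113, 438 and 144 without stiff replicates 1, 2 and 3, and 1627 without soft replicate 1. Without soft replicate 1, 7.28% of tested genes were higher and 6.5% lower, and the counts of gene lists given without it are to be read against those shares.

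Kdr was the one member that was called, and it fell in stiff gels. It lies on chromosome 5 (75932827 to 75978458, minus strand, mm10; 3 transcripts and 9030 exonic bases in GENCODE M21, with no overlapping gene annotated). Its level was 10.8, 12.8 and 8.68 FPKM (fragments scaled by the length of the gene and the size of the library) in stiff replicates 1 to 3, against 18.8, 27.2 and 28.2 FPKM in soft replicates 1 to 3. The groups did not overlap: the highest stiff library stayed below soft replicate 1, the lowest of the soft libraries. The reads behind these values were 1505, 1721 and 1097 in stiff gels, against 2553, 3820 and 3955 in soft gels. The mean was 10.7 ± 2.04 FPKM in stiff gels and 24.7 ± 5.17 FPKM in soft gels (SD, n = 3 each), so the soft mean was 2.30-fold the stiff mean. On the log2(FPKM + 1) scale the difference, stiff minus soft, was -1.13 ± 0.16 (SE; 95% interval -1.5 to -0.75; limma adjusted p = 0.0104). In the authors' deposited table it has a log2 fold change of -1.23 and q = 3.67e-05. In stiff gels 60.9% of the listed genes had a lower mean than Kdr, and in soft gels 81.0% had. Without soft replicate 1 the log2 difference was -1.30 (limma adjusted p = 0.000446). The call was lost without stiff replicate 1 (log2 difference -1.13, limma adjusted p = 0.0567) and without soft replicate 2 (-1.05, limma adjusted p = 0.0558).

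Flt1 had the lowest level of the members, and all 3 stiff libraries lay below all 3 soft libraries. The gene lies on chromosome 5 (147561604 to 147726011, minus strand, mm10; 6 transcripts, 13504 exonic bases, no overlapping gene annotated). It had 0.318, 0.351 and 0.138 FPKM in stiff replicates 1 to 3, against 0.563, 1.12 and 1.11 FPKM in soft replicates 1 to 3. Stiff replicate 3 was lowest, and soft replicate 1 lay nearest to the stiff libraries. These values rest on 79, 84 and 31 reads in stiff gels, against 136, 280 and 276 reads in soft gels. The mean was 0.269 ± 0.115 FPKM in stiff gels and 0.931 ± 0.319 FPKM in soft gels (SD, n = 3 each). Both means were under the minimum of 1 FPKM in either group that a gene needed to be tested, so its test comes from the same fit without that minimum. There the log2 difference was -0.60 ± 0.13 (SE; 95% interval -0.89 to -0.30), with a limma adjusted p of 0.0503, just above the threshold of 0.05, in a fit that called 3.39% of all genes and 1.47% as lower. At so low a level the pseudocount of 1 understates the difference, and with a pseudocount of 0.1 it was -1.48 (limma adjusted p = 0.0460). Reads rebuilt from the FPKM and tested with limma-voom gave -1.83 (limma adjusted p = 0.0182), and -1.82 stands in the authors' deposited table, with q = 0.00664. Without soft replicate 1, its lowest soft library, Flt1 passed the minimum through the soft mean alone. There the log2 difference was -0.74 (limma adjusted p = 0.00441), in a fit that called 13.8% of all tested genes and 6.5% as lower. Because the gene entered that fit through the group where it is high, the value is given as a description and not as further support. Without any other single library the adjusted p lay between 0.0949 and 0.172 (limma, no minimum).

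Tek did not differ beyond the spread of the libraries. It lies on chromosome 4 (94739289 to 94874976, plus strand, mm10; 4 transcripts, 4712 exonic bases, no overlapping gene annotated). It had 5.50, 5.77 and 4.86 FPKM in stiff replicates 1 to 3, against 5.49, 4.64 and 4.58 FPKM in soft replicates 1 to 3. The ranges overlapped, with soft replicate 1 level with stiff replicate 1. The means were 5.37 ± 0.466 FPKM in stiff gels and 4.90 ± 0.513 FPKM in soft gels (SD, n = 3 each), from 384 to 486 reads per stiff library and 402 to 467 reads per soft library. The log2 difference was 0.11 ± 0.09 (SE; 95% interval -0.09 to 0.32; limma adjusted p = 0.543). The interval leaves out a fall of the size seen for Kdr.

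**Figure D1:**
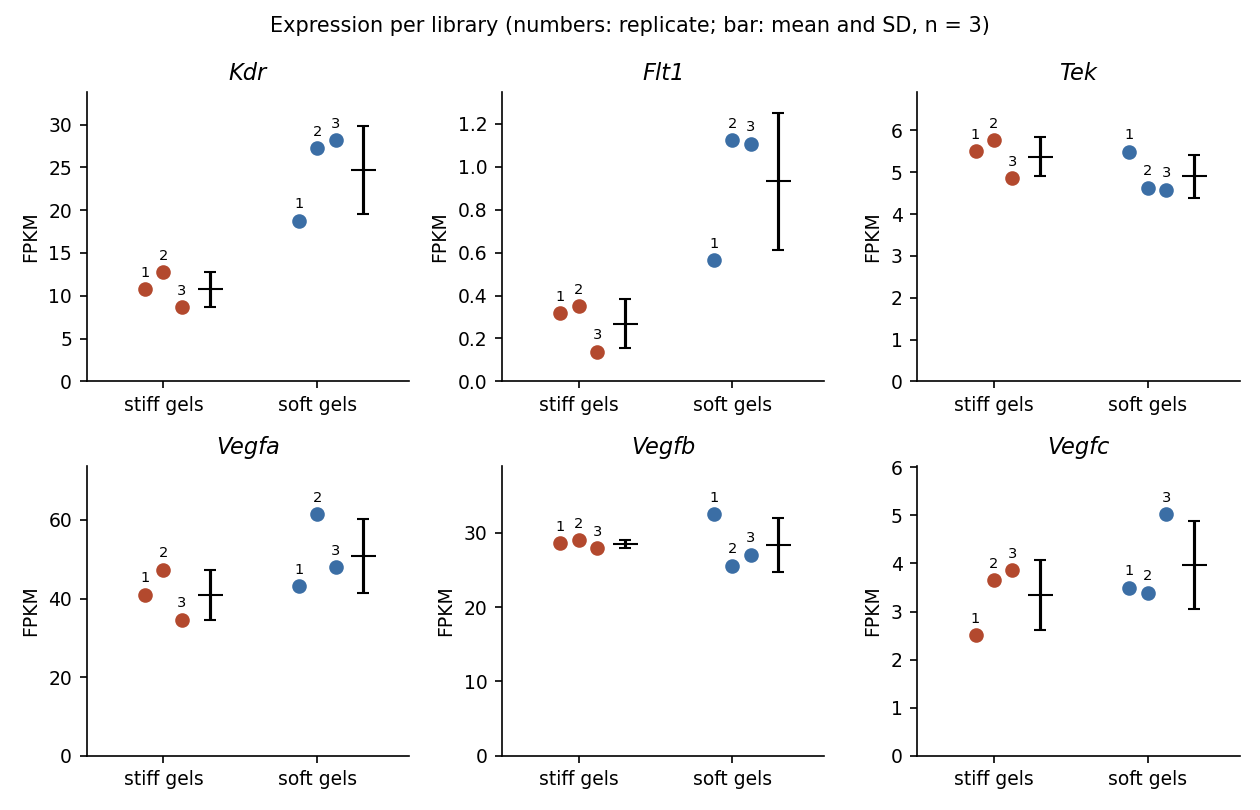
Level of each gene in FPKM (linear axis from 0) in stiff gels (left of each panel) and soft gels (right), 1 point per library with its replicate number, and the mean with its SD (n = 3). The Kdr and Flt1 points of stiff gels all lie below those of soft gels, and the ranges of the other genes overlap.

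Of the 5 members that could be tested, 1 was called, against 5.81% of all tested genes. Of all 6, Kdr and Flt1 had groups that did not overlap, both lower in stiff gels, as had 10.3% of all genes of the table. The authors' deposited table calls the same pair at q under 0.05, against 8.12% of its genes. The receptors therefore stood in a different proportion in each group. The ratio of Kdr to Tek in FPKM was 1.96, 2.22 and 1.79 in stiff replicates 1 to 3, against 3.42, 5.87 and 6.15 in soft replicates 1 to 3, and these ranges did not overlap. Kdr alone already separated the groups, so the ratio to Tek restates that difference. The ratio of Kdr to Flt1 was 33.8, 36.4 and 62.8 in stiff gels, against 33.3, 24.2 and 25.4 in soft gels. Its stiff libraries were all above the soft libraries, with stiff replicate 1 and soft replicate 1 nearly level and the 62.8 resting on 31 Flt1 reads. Kdr had the most RNA per length of the receptors in every library and Flt1 the least.

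Vegfa was the most abundant ligand in every library. It lies on chromosome 17 (46016993 to 46032369, minus strand, mm10; 13 transcripts, 4285 exonic bases, no overlapping gene annotated), and a value per gene does not separate its splice forms. It had 41.0, 47.3 and 34.6 FPKM in stiff replicates 1 to 3, against 43.2, 61.4 and 47.9 FPKM in soft replicates 1 to 3. Stiff replicate 3 was lowest and soft replicate 2 highest, while stiff replicate 2 lay above soft replicate 1, so the groups overlapped. The means were 41.0 ± 6.33 FPKM in stiff gels and 50.8 ± 9.46 FPKM in soft gels (SD, n = 3 each), from 2328 to 3391 reads per stiff library and 3122 to 4587 reads per soft library. The log2 difference was -0.30 ± 0.14 (SE; 95% interval -0.62 to 0.02) and was not called (limma adjusted p = 0.259). It kept its sign in all 6 fits that left out 1 library, between -0.41 and -0.16. The authors' deposited table gives -0.34 with q = 0.0936. The mean was above that of 89.3% of listed genes in stiff gels and of 91.9% in soft gels.

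Vegfb had nearly the same mean in both gels. The gene (chromosome 19, 6982473 to 6987651, minus strand, mm10; 3 transcripts, 1605 exonic bases, no overlapping gene annotated) had 28.6, 29.0 and 27.9 FPKM in stiff replicates 1 to 3, against 32.5, 25.5 and 27.0 FPKM in soft replicates 1 to 3. The stiff values lay within the soft range, which was the wider of both. The means were 28.5 ± 0.519 FPKM in stiff gels and 28.3 ± 3.64 FPKM in soft gels (SD, n = 3 each). The log2 difference was 0.01 ± 0.09 (SE; 95% interval -0.18 to 0.21; limma adjusted p = 0.954), and its sign turned under other scalings and without soft replicate 2 or 3, so no direction is given.

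Vegfc was the rarest ligand of the set. It lies on chromosome 8 (54077606 to 54187096, plus strand, mm10; 3 transcripts, 2449 exonic bases, no overlapping gene annotated). It had 2.51, 3.65 and 3.86 FPKM in stiff replicates 1 to 3, against 3.50, 3.39 and 5.02 FPKM in soft replicates 1 to 3, which overlap. The reads were 84, 118 and 117 in stiff gels, against 114, 114 and 169 in soft gels, so counting error is larger here than for the other ligands. The means were 3.34 ± 0.730 FPKM in stiff gels and 3.97 ± 0.912 FPKM in soft gels (SD, n = 3 each). The log2 difference was -0.19 ± 0.16 (SE; 95% interval -0.55 to 0.16; limma adjusted p = 0.539).

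**Figure D2:**
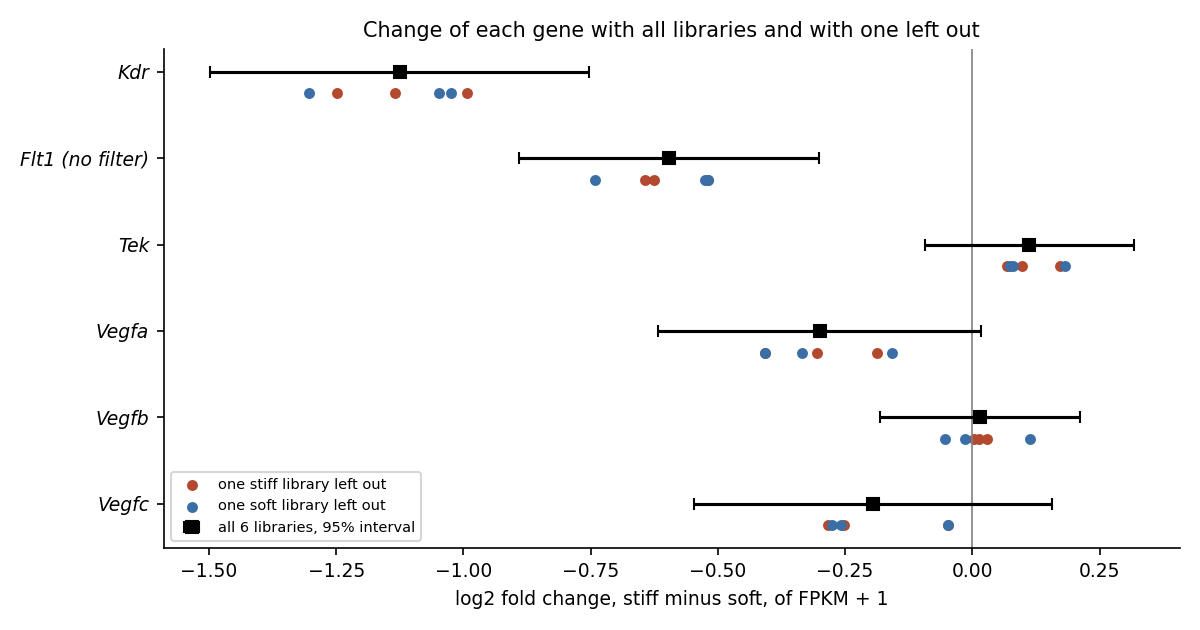
Log2 difference of FPKM + 1, stiff minus soft, for each of the 6 genes, with its 95% interval over all 6 libraries and the values with 1 library left out. Kdr and Flt1 lie wholly below 0, between -1.30 and -0.52 over these fits, and the intervals of the other genes include 0.

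On the per-length scale of FPKM the ligands can be set beside each other. Summed over Vegfa, Vegfb and Vegfc, the level was 72.1, 79.9 and 66.4 FPKM in stiff replicates 1 to 3, against 79.1, 90.3 and 80.0 FPKM in soft replicates 1 to 3. Vegfa made up 56.9%, 59.2% and 52.1% of that sum in stiff gels, against 54.6%, 68.0% and 59.9% in soft gels. Vegfb made up 39.6%, 36.3% and 42.1% in stiff gels, against 41.0%, 28.3% and 33.8% in soft gels. The shares of both ligands overlapped between the groups. Vegfc stayed between 3.48% and 5.81% in stiff gels and between 3.75% and 6.28% in soft gels. The ratio of Vegfa to its receptor gene Kdr did not overlap: it was 3.81, 3.70 and 3.99 in stiff gels, against 2.30, 2.26 and 1.70 in soft gels. Since Kdr alone already separated the groups, this ratio is not a further result.

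**Figure D3:**
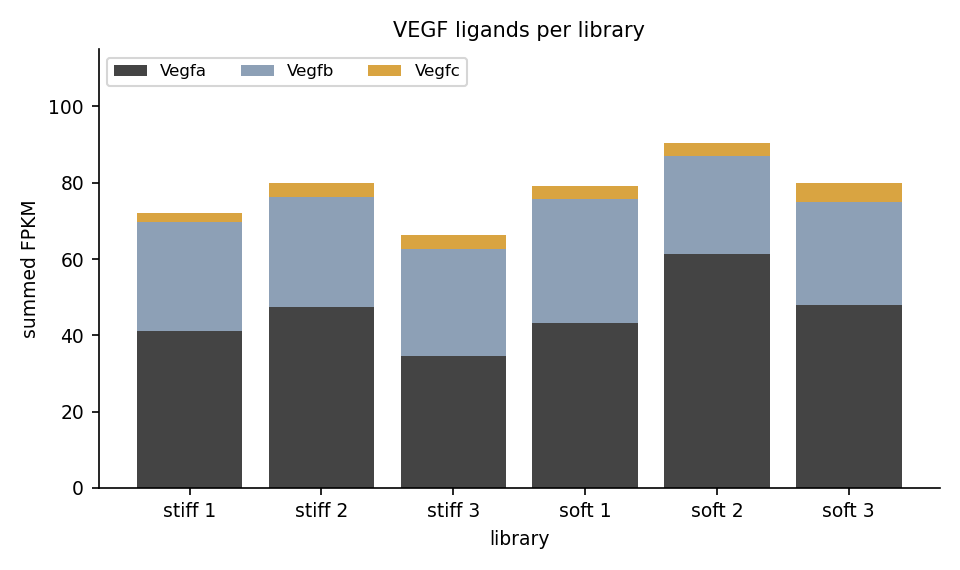
Summed FPKM (axis from 0) of Vegfa, Vegfb and Vegfc in each library, stiff libraries left and soft libraries right, with each ligand as a segment of the bar. Vegfa is the tallest segment in all 6 libraries, from 52.1% of the sum in stiff replicate 3 to 68.0% in soft replicate 2.

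Of the wider family of VEGF ligands and receptors, 10 genes were in the table and 8 were tested. Of these, 1 rose (Pgf, against 3.13% of all tested genes higher) and 2 fell (Kdr and Nrp2, against 2.68% lower). The median log2 difference of the 8 was -0.24, against 0.03 over all tested genes. Pgf, the FLT1 ligand, moved the opposite way to its receptor gene. It had 2.83, 2.94 and 2.80 FPKM in stiff replicates 1 to 3, against 0.959, 0.630 and 0.995 FPKM in soft replicates 1 to 3, and the groups lay far apart. Its reads were 85, 85 and 76 in stiff gels, against 28, 19 and 30 in soft gels. The log2 difference was 1.06 ± 0.10 (SE; limma adjusted p = 0.00333), and it was called in all 6 fits with a library left out (limma adjusted p up to 0.0339). Its soft mean of 0.862 FPKM was under the minimum, so Pgf entered all these fits through the stiff mean alone. Without the minimum the limma adjusted p over all libraries was 0.00835. In the authors' deposited table it has 1.70 with q = 1.69e-06. The ratio of Pgf to Flt1 was 8.90, 8.37 and 20.3 in stiff gels, against 1.70, 0.561 and 0.899 in soft gels.

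Nrp2 and Nrp1 encode the neuropilins, co-receptors of VEGF and semaphorins. Nrp2 had 2.37, 2.49 and 2.5 FPKM in stiff gels, against 2.98, 4.29 and 3.99 FPKM in soft gels, a log2 difference of -0.45 ± 0.11 (SE; limma adjusted p = 0.0484). It was not called without the minimum (limma adjusted p = 0.0763). Its groups did not overlap, but the call was kept in 1 of the 6 fits with a library left out. Without soft replicate 1 the limma adjusted p was 0.00284. Without soft replicates 2 and 3 it was 0.166 and 0.160, and without stiff replicates 1, 2 and 3 it was 0.142, 0.102 and 0.136 (limma). Nrp1 averaged 5.98 ± 0.583 FPKM in stiff gels and 7.53 ± 1.25 FPKM in soft gels (SD, n = 3 each; limma adjusted p = 0.191), and was called, at 0.0241, without soft replicate 1. Flt4, the VEGF-C receptor gene, averaged 1.21 ± 0.103 FPKM in stiff gels and 1.40 ± 0.184 FPKM in soft gels (limma adjusted p = 0.561). Vegfd, a ligand of FLT4, had 3, 7 and 2 reads in stiff gels, against 16, 11 and 23 in soft gels; its groups did not overlap, and the limma adjusted p without the minimum was 0.0630. Without soft replicate 1 the family counts were 1 higher and 4 lower of 9 tested, against 13.8% of all genes called in that fit, 7.28% higher and 6.5% lower.

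On the angiopoietin and Tie axis, Tek and Svep1 were the 2 genes that passed the minimum. Of the angiopoietin and Tie genes, 6 had a row and 4 of them stayed below 0.5 FPKM in every library. Tie1, the partner receptor of TIE2, had 1, 5 and 1 reads in stiff gels, against 2, 2 and 0 in soft gels. Ptprb, the endothelial phosphatase that acts on TIE2, had 1, 5 and 2 reads in stiff gels, against 1, 2 and 0 in soft gels. Angpt1, the activating ligand, averaged 0.305 FPKM in stiff gels and 0.414 FPKM in soft gels, and Angpt2 averaged 0.0708 FPKM in stiff gels and 0.0736 FPKM in soft gels. Svep1, which encodes a matrix protein known to bind TIE1, averaged 4.90 ± 0.645 FPKM in stiff gels and 4.27 ± 0.474 FPKM in soft gels (SD, n = 3 each; limma adjusted p = 0.427). With Tek and Svep1 tested, 0 genes of the axis were called, and 0 were called in the authors' deposited table.

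Counts of called genes in the lists that follow are to be read against 3.13% of all tested genes higher and 2.68% lower. Of the genes for enzymes and cofactors that process or release VEGF proteins, 10 were tested, 0 rose and 1 fell: Plau, which encodes urokinase, averaged 0.647 ± 0.326 FPKM in stiff gels and 1.53 ± 0.155 FPKM in soft gels (limma adjusted p = 0.0419; 0.0700 with a pseudocount of 0.1 and 0.0575 without the minimum). Of the signal transducers downstream of VEGF receptors, 31 were tested, 0 rose and 1 fell: Pxn, which encodes the focal adhesion protein paxillin, averaged 25 ± 0.977 FPKM in stiff gels and 30.4 ± 1.13 FPKM in soft gels (limma adjusted p = 0.0354). Both calls held without soft replicate 1 alone (limma adjusted p = 0.0248 and 0.0160). Without any other single library the limma adjusted p was 0.0560 to 0.148 for Plau and 0.0761 to 0.132 for Pxn. The median log2 difference was -0.10 over the tested processing genes and 0.01 over the tested transducers, against 0.03 over all tested genes. With soft replicate 1 left out, 0 processing genes were higher and 3 lower, and 1 transducer was higher and 2 lower.

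Of the genes known as endothelial responses to VEGF, 11 were tested, with 1 higher and 2 lower. Nr4a1, an early-response nuclear receptor that many other stimuli also induce, averaged 37.3 ± 6.04 FPKM in stiff gels and 22.4 ± 0.514 FPKM in soft gels (limma adjusted p = 0.0104; 0.0554 without soft replicate 2). Plaur, the urokinase receptor gene, averaged 6.66 ± 2.35 FPKM in stiff gels and 17.3 ± 4.58 FPKM in soft gels (limma adjusted p = 0.0211). Sele, which encodes the adhesion molecule E-selectin, averaged 1.39 ± 1.01 FPKM in stiff gels and 4.76 ± 1.78 FPKM in soft gels (limma adjusted p = 0.0428; 0.0763 without the minimum). It is not called in the authors' deposited table (q = 0.0766). Plaur and Sele were no longer called without stiff replicate 1 or 3 or soft replicate 2 or 3, with limma adjusted p of 0.0595 to 0.0944 for Plaur and 0.139 to 0.153 for Sele. The members thus moved in both directions, and the median log2 difference was 0.12. The counts were 2 higher and 4 lower without soft replicate 1.

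Among other pro-angiogenic ligands and receptors, 18 were tested, 3 rose and 1 fell. Pdgfb, which encodes the platelet-derived growth factor that endothelial cells use to recruit pericytes, averaged 1.07 ± 0.0967 FPKM in stiff gels and 2.69 ± 0.566 FPKM in soft gels (limma adjusted p = 0.0104). Its call was lost without stiff replicate 1 (limma adjusted p = 0.0531) and without soft replicate 2 (0.0580). The Notch ligand gene Jag1, which also marks cochlear prosensory cells, averaged 27.1 ± 1.74 FPKM in stiff gels and 15.3 ± 3.32 FPKM in soft gels (limma adjusted p = 0.0129). Ackr3, a scavenging receptor of the chemokine CXCL12, averaged 5.33 ± 0.467 FPKM in stiff gels and 1.98 ± 1.02 FPKM in soft gels (limma adjusted p = 0.0159), and Cxcl12 itself averaged 1.07 ± 0.0454 FPKM in stiff gels and 0.438 ± 0.110 FPKM in soft gels (limma adjusted p = 0.0202). Jag1 and Ackr3 lost their calls without stiff replicate 1 or 3 or soft replicate 2, with limma adjusted p of 0.0517 to 0.0705 for Jag1 and 0.0614 to 0.0810 for Ackr3. This list had 4 genes higher and 4 lower without soft replicate 1. Cxcl12 kept its call without soft replicate 1 alone, with limma adjusted p of 0.0523 to 0.0838 without any other library. It passed the minimum through its stiff mean alone, and without the minimum the limma adjusted p was 0.0166.

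Of the endogenous inhibitors of angiogenesis, 16 were tested, with 1 higher and 1 lower. Cnmd encodes chondromodulin, a cartilage protein that inhibits vessel growth, and averaged 49.0 ± 1.71 FPKM in stiff gels and 81.3 ± 18.1 FPKM in soft gels (limma adjusted p = 0.0209). Its call was kept without soft replicates 1 and 3, and without soft replicate 2 or any stiff replicate the limma adjusted p was 0.0511 to 0.0830. Isl1, a transcription factor gene of many lineages including the otic one, averaged 30.7 ± 1.56 FPKM in stiff gels and 16.6 ± 3.48 FPKM in soft gels (limma adjusted p = 0.0104; 0.0619 without stiff replicate 1 and 0.0518 without soft replicate 2). Of 17 inhibitors tested without soft replicate 1, 3 were higher and 3 lower.

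In bulk RNA, fewer cells of a type and less RNA per cell cannot be told apart, so the markers of vessel cells are given beside the receptors. Of 30 endothelial marker genes other than the members, 20 had a row and 4 of those stayed below 0.5 FPKM in all 6 libraries. The defining markers stood at very different levels: Pecam1 (CD31) had 4, 1 and 4 reads in stiff gels, against 1, 3 and 8 in soft gels, whereas Emcn (endomucin) had 338, 406 and 326 FPKM in stiff gels, against 366, 400 and 423 FPKM in soft gels. Cdh5 (VE-cadherin) had 1.07, 1.17 and 0.692 FPKM in stiff gels, against 0.915, 1.43 and 1.37 FPKM in soft gels. Pecam1, Tie1, Ptprb and Nos3 were the 4 markers below 0.5 FPKM in all 6 libraries. Other markers were abundant, with 7749 or more reads of Emcn and 1473 or more of Lmo2 in every library. Kdr had 1097 or more reads in every library. None of Pecam1, Cdh5 and Emcn was called; the limma adjusted p was 0.501 for Cdh5, 0.406 for Emcn and, without the minimum, 0.898 for Pecam1.

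Of the 11 endothelial markers tested, 0 rose and 3 fell, against 3.13% of all tested genes higher and 2.68% lower. The log2 difference was negative for 10 of the 11, against 41.2% of all tested genes, with a median of -0.32, against 0.03. A gene can pass the minimum through the group where it is high. Without the minimum, the median over the 20 markers with a row was -0.17, against 0.02 over all genes. That fit called 0 of the 20 higher and 1 lower, against 1.47% of all genes lower. The authors' deposited table calls 0 of the 20 higher and 6 lower, against 3.44% and 4.68% of its genes. Groups did not overlap in 5 of the 11 tested markers with stiff lower, against 10.4% of all tested genes. Lmo2, a partner of blood and endothelial transcription factors, averaged 40.3 ± 3.71 FPKM in stiff gels and 58.2 ± 2.46 FPKM in soft gels (limma adjusted p = 0.0104; 0.0554 without soft replicate 2). Ecscr, an endothelial surface protein gene, averaged 0.481 ± 0.231 FPKM in stiff gels and 1.96 ± 0.858 FPKM in soft gels (limma adjusted p = 0.0356), and Cd34 averaged 2.00 ± 0.383 FPKM in stiff gels and 3.48 ± 0.649 FPKM in soft gels (limma adjusted p = 0.0356). Without the minimum Ecscr and Cd34 were not called (limma adjusted p = 0.0605 and 0.0614). Ecscr kept its call without stiff replicate 2 or soft replicate 1 and Cd34 without soft replicate 1 alone, with limma adjusted p of 0.122 to 0.131 and 0.0635 to 0.130 without the other libraries. The endothelial counts without soft replicate 1 were 0 higher and 4 lower of 11, against 7.28% and 6.5% of all genes in that fit. The summed level of the 20 markers ranged from 418 to 506 FPKM in stiff gels and from 479 to 557 FPKM in soft gels, most of it Emcn. Without Emcn the sum was 88.6 to 99.9 FPKM in stiff gels and 113 to 136 FPKM in soft gels, which did not overlap. With Lmo2, the most abundant of the 3 called genes, also taken out, the sums were 49.4 to 58.2 FPKM in stiff gels. In soft gels they were 57.5 to 77.3 FPKM. These ranges overlapped slightly, with stiff replicate 2 at 58.2 FPKM above soft replicate 1 at 57.5 FPKM. Ecscr and Cd34 stayed in the sum. Lmo2 was taken out after the values were seen. The part of these markers in the fall of Kdr was not tested.

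**Figure D4:**
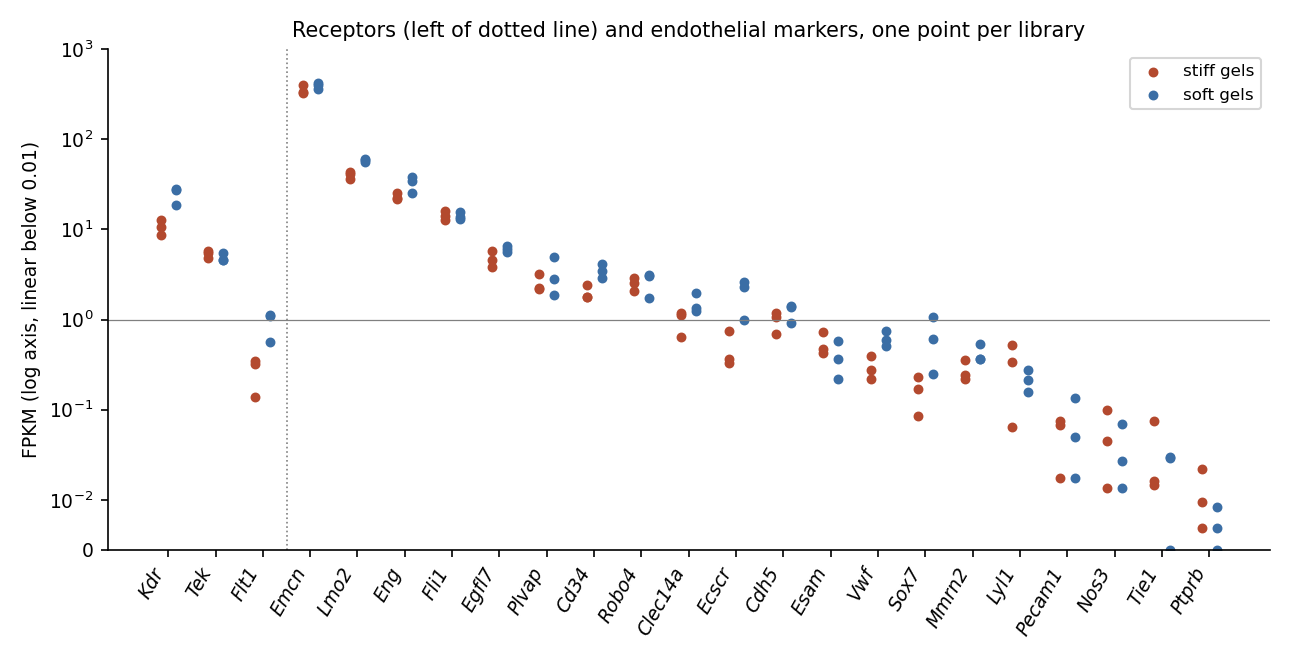
Level in FPKM (log axis, linear below 0.01) of the 3 receptor genes, left of the dotted line, and of the endothelial markers with a row, 1 point per library, stiff gels left of soft gels for each gene. Emcn lies above 300 FPKM while Pecam1, Tie1, Nos3 and Ptprb lie below 0.5 FPKM in all libraries.

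Of the pericyte and vascular smooth muscle markers, 14 had a row, 6 were tested, 0 rose and 1 fell: Rgs5, a regulator of G protein signalling and a pericyte marker, averaged 8.50 ± 0.841 FPKM in stiff gels and 18.2 ± 2.18 FPKM in soft gels (limma adjusted p = 0.00354, and up to 0.0339 with any library left out). The other defining markers of that list were not called, with Pdgfrb at 10.3 ± 1.87 FPKM in stiff gels and 13.2 ± 3.62 FPKM in soft gels, and Cspg4 at 0.292 ± 0.0724 FPKM in stiff gels and 0.277 ± 0.0860 FPKM in soft gels. Pdgfrb, with a log2 difference of -0.30 over all libraries, fell by 0.53 on the log2 scale and was called without soft replicate 1 (limma adjusted p = 0.0272). Pericyte markers had 0 higher and 4 lower of 6 tested without soft replicate 1. The summed level of the list was 36.1 to 52.0 FPKM in stiff gels and 54.4 to 77.6 FPKM in soft gels. This sum includes Rgs5, the called gene, so its separation is not apart from that call. Of 15 macrophage and blood markers 4 had a row, with sums of 5.4 to 7.97 FPKM in stiff gels and 4.84 to 7.54 FPKM in soft gels. The cochlear epithelial markers, which check the labelled tissue, were abundant, with Epcam at 268 ± 16.3 FPKM in stiff gels and 229 ± 21.1 FPKM in soft gels and Krt8 at 308 ± 29.9 FPKM in stiff gels and 313 ± 26.9 FPKM in soft gels. Epcam was called higher in stiff gels without soft replicate 1 (limma adjusted p = 0.0350), against 0.147 with all libraries. Of 16 epithelial, prosensory and supporting cell markers tested, 6 rose and 1 fell, against 3.13% and 2.68% of all tested genes, led by Sox2 at 5.03 ± 0.615 FPKM in stiff gels and 1.47 ± 0.797 FPKM in soft gels (limma adjusted p = 0.0104; 0.0592 without stiff replicate 1 and 0.0554 without soft replicate 2). Hes1, the marker that fell, averaged 32.8 ± 4.84 FPKM in stiff gels and 51.9 ± 6.80 FPKM in soft gels (limma adjusted p = 0.0202). It was not called without stiff replicate 1 or 3 or soft replicate 2 or 3 (limma adjusted p up to 0.0879). The epithelial counts without soft replicate 1 were 8 higher and 1 lower of 16. Of the other marker lists, 0 of 2 lymphatic, 0 of 10 mesenchymal and 0 of 2 melanocyte genes tested were called. Without soft replicate 1, 2 of 10 mesenchymal genes were higher and 1 lower, 1 of 2 melanocyte genes was higher and 0 lymphatic genes were called. That fit called 7.28% of all genes higher and 6.5% lower. The authors' deposited table calls 1 of 12 mesenchymal genes lower and 2 of 6 melanocyte genes higher, against 4.68% and 3.44% of its genes. Hair cell markers gave 2 higher of 5 tested, and glial and neuronal markers gave 4 higher and 1 lower of 10 tested, to be read against the same shares of all tested genes. The part of these cell type markers in the levels of the 6 genes was not tested.

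Vegfa is a known target of the hypoxia-inducible factors, so the genes of that response were set beside it. Hif1a, the gene of the oxygen-sensitive subunit, averaged 54.0 ± 2.56 FPKM in stiff gels and 50.5 ± 3.43 FPKM in soft gels (limma adjusted p = 0.483), and Epas1, which encodes HIF-2 alpha, averaged 6.76 ± 0.835 FPKM in stiff gels and 7.34 ± 0.916 FPKM in soft gels (0.654). Of 14 tested factors and regulators, 1 rose and 1 fell (Egln3). Siah1a, a ubiquitin ligase gene, averaged 5.43 ± 0.299 FPKM in stiff gels and 4.10 ± 0.0510 FPKM in soft gels (limma adjusted p = 0.0316). Its call was lost without the minimum (limma adjusted p = 0.0543) and kept without stiff replicate 2 or soft replicate 1, and without the other libraries the limma adjusted p was 0.105 to 0.124. Regulators without soft replicate 1 counted 3 higher and 1 lower. Of 27 tested hypoxia-inducible genes, 1 rose and 3 fell, so most were not called. Their differences still lay to one side: 24 of 27 were negative, against 41.2% of all tested genes, and the median was -0.50, against 0.03. The groups did not overlap in 20 of the 27 with stiff lower, against 10.4% of all tested genes. The authors' deposited table calls 1 of the 31 listed genes higher and 10 lower, against 3.44% and 4.68% of its genes. Without soft replicate 1, limma calls 1 of 27 higher and 13 lower, against 7.28% and 6.5% of all tested genes.

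Ddit4, an inhibitor of mTOR signalling induced by low oxygen and stress, averaged 65.6 ± 3.01 FPKM in stiff gels and 92.7 ± 4.99 FPKM in soft gels (limma adjusted p = 0.00918, and up to 0.0486 with any library left out). Egln3, an oxygen-sensing prolyl hydroxylase gene, averaged 2.00 ± 0.389 FPKM in stiff gels and 3.53 ± 0.532 FPKM in soft gels (limma adjusted p = 0.0248). Fam162a, a mitochondrial protein gene, averaged 72.2 ± 21.6 FPKM in stiff gels and 125 ± 12.9 FPKM in soft gels (limma adjusted p = 0.0330; 0.0618 without the minimum). Egln3 and Fam162a lost their calls without stiff replicate 1 or 3 or soft replicate 2 or 3, with limma adjusted p of 0.0537 to 0.102 and 0.0872 to 0.130. Mxi1, a partner of the MYC network, went the other way, at 14.2 ± 0.572 FPKM in stiff gels and 9.93 ± 0.807 FPKM in soft gels (limma adjusted p = 0.0109; 0.0515 without stiff replicate 3 and 0.0589 without soft replicate 2).

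The single libraries followed a shared order that was noticed after the values were seen. In 20 of the 27 hypoxia-inducible genes soft replicate 2 was highest and stiff replicate 3 lowest, as was the case for 4.41% of all tested genes and for Vegfa itself. Pgk1, a glycolytic enzyme gene, had 329, 442 and 194 FPKM in stiff gels, against 479, 717 and 549 FPKM in soft gels, and Car9, a carbonic anhydrase gene, had 13.6, 19.2 and 2.93 FPKM in stiff gels, against 20.9, 35.4 and 23.6 FPKM in soft gels. Neither was called (limma adjusted p = 0.0816 and 0.157). The summed level of the 31 hypoxia-inducible genes with a row was 2599, 3064 and 1832 FPKM in stiff replicates 1 to 3, against 3447, 4335 and 3702 FPKM in soft replicates 1 to 3. Kdr did not share that order, since soft replicate 3 was its highest library. The part of these genes in the level of Vegfa was not tested.

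**Figure D5:**
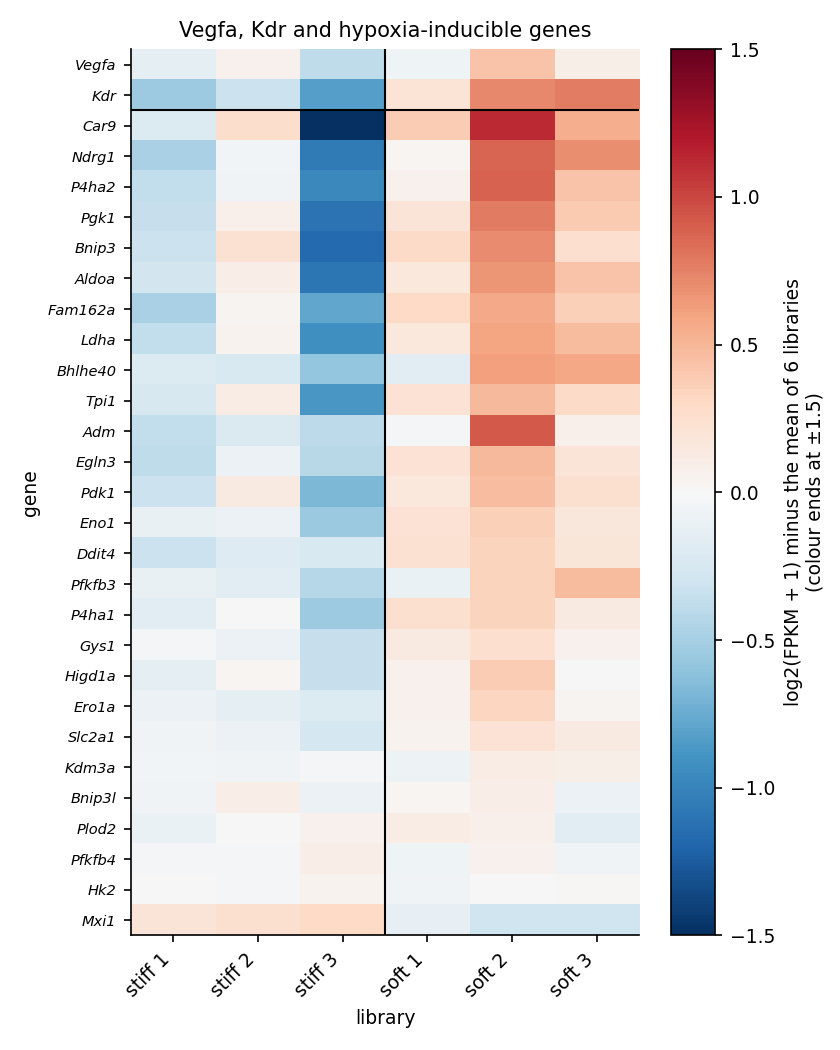
Log2(FPKM + 1) minus the mean of the 6 libraries for Vegfa, Kdr and the tested hypoxia-inducible genes (rows) in each library (columns, stiff left of soft), with the colour scale ending at 1.5 either way. Stiff replicate 3 is the lowest and soft replicate 2 the highest column for Vegfa and for 20 of the 27 hypoxia-inducible genes.

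Of 16 tested genes known to act on Vegfa transcription or mRNA stability, 3 rose and 1 fell. Klf2, a shear-induced factor known in endothelium to restrain Kdr, averaged 10.6 ± 1.94 FPKM in stiff gels and 1.30 ± 0.0569 FPKM in soft gels (limma adjusted p = 7.59e-05, and up to 0.00287 with any library left out). Klf4 averaged 3.70 ± 0.252 FPKM in stiff gels and 2.54 ± 0.0889 FPKM in soft gels (limma adjusted p = 0.0211), Foxo1 averaged 12.6 ± 0.835 FPKM in stiff gels and 9.81 ± 0.5 FPKM in soft gels (0.0333; 0.0534 without the minimum), and Myc averaged 14.7 ± 0.503 FPKM in stiff gels and 18.1 ± 0.544 FPKM in soft gels (0.0323). The calls of Klf4, Foxo1 and Myc were kept without soft replicate 1 alone, with limma adjusted p of 0.0533 to 0.127 without any other library. The median log2 difference of the 16 was 0.01, against 0.03 over all tested genes, and without soft replicate 1, 3 were higher and 2 lower. The part of Klf2 or of the other genes of this list in the levels of Kdr and Vegfa was not tested.

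The genes whose level followed a member most closely over the 6 libraries were sought among 8451 genes with a mean of at least 5 FPKM, as a description without a test. Kdr was most like Atoh8, a basic helix-loop-helix factor gene (Pearson r = 0.997), Il33, which encodes an alarmin cytokine (0.996), and Osmr, the oncostatin M receptor gene (0.996), and 210 genes reached r of 0.95. Osmr averaged 11.5 ± 2.09 FPKM in stiff gels and 22.5 ± 4.59 FPKM in soft gels. Vegfa was most like Spata6 (0.996), Syngr1 (0.987) and P2rx2 (0.972), and 18 genes reached 0.95. Vegfb was most like Abitram (0.996), Inip (0.995) and Nabp2 (0.992), with 23 genes at 0.95 or above, and Tek was most like Sephs2 (0.978), Mcrip1 (0.972) and Dhx37 (0.968), with 9. The points share the libraries and their depth, and where a gene differs between the gels, r rests largely on that difference. Flt1 and Vegfc were below the level set for this search.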

How the data were processed

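RNA-seq of 6 organoid libraries was deposited as 1 table of 15016 genes. Its expression columns were taken as FPKM made by the authors; the header names no unit, and the values led to this one. Per the file headers, the table also gives a base mean (the authors' normalized signal), the ratio or fold change and log2 fold change of stiff over soft, its standard error and statistic (scores), and the p-value and q-value. TopHat2 2.1.1, DESeq2 and build mm10 are named in the submitters' processing notes; no source used here gives the read counter, annotation or gene filter. The library kit does not mark the strand, per the labels' protocols. Every sample column was matched to its sample by name, and 0 were left over.

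Reads rebuilt from FPKM and base mean came out whole within 0.05 reads for 100% of values; a count of 0 allows up to 3 reads, or 0.168 to 0.186 CPM, for counting error only. Comparing rebuilt reads between libraries gave a chi-square of 5.71 or more per gene in every pair, so no library was counted as a repeat. The test was limma 3.58.1 (R 4.3.3) with an intensity trend on log2(FPKM + 1), for genes with a mean of at least 1 FPKM in either group, Benjamini-Hochberg adjusted over all genes tested and called under 0.05. It was tested on simulated data. Alternatives were a pseudocount of 0.1, no minimum, median-ratio scaling, limma-voom on the rebuilt reads, the replicate number as a block, each library left out and the authors' deposited comparison; those for Flt1 without the minimum were added after the data were seen. The members and the gene lists were chosen with earlier results of these data known. Named were all members, all genes of the VEGF and Tie lists, up to 3 called genes per direction of each other list with the lowest adjusted p, the first 3 of each cell type list, and the 3 genes most like each member; Pgk1, Car9, Hif1a and Epas1 were added after their values were seen. An exact permutation test of 3 against 3 libraries cannot go below p = 0.1. Gene positions are from GENCODE M21 (mm10).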

Additional observations from a re-analysis of the deposited data

How the results depend on the processing

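The number of genes called was 641 to 881 in the other limma fits that kept all libraries and the minimum, 509 without the minimum and 1220 in the authors' deposited table; leaving out 1 library gave 65 to 1627. The number of members called was 2 in the authors' deposited table and 0 to 2 with 1 library left out. Kdr was called under every other setting that kept all libraries, with a log2 difference of -1.30 to -0.99 when 1 library was left out. Flt1, with no minimum, was called with a pseudocount of 0.1 (-1.48), with limma-voom on rebuilt reads (-1.83) and in the authors' deposited table (-1.82), and lay between -0.74 and -0.52 with 1 library left out. Vegfb turned to -0.0129 under median-ratio scaling and -0.00926 under limma-voom, to -0.0190 in the authors' deposited table, and lay between -0.0540 and 0.113 with 1 library left out. Over all tested genes, the deviations of same-numbered stiff and soft libraries from their group means had r of 0.009, 0.219 and -0.211. The numbers were not taken as pairs, but 3 libraries a group cannot show that they are unpaired. For Vegfa, replicate 2 was the highest library of both groups. With a replicate block 710 genes and 1 member were called. The limma adjusted p was then 0.00815 for Kdr and 0.0627 for Flt1 without the minimum. For Vegfa it was 0.0956, against 0.259 without the block. Among 69 named genes outside the set, Abitram turned to -0.0210 under median-ratio scaling, -0.0201 under limma-voom and -0.0244 in the authors' deposited table. Of the 37 called among them, 10 were not called without the minimum (Nrp2, Plau, Sele, Siah1a, Fam162a, Foxo1, Ecscr, Cd34, Calb2 and Il33; limma adjusted p = 0.0523 to 0.0763), 4 with the replicate block (Pxn, Siah1a, Myc and Cd34; 0.0529 to 0.0728), 1 with a pseudocount of 0.1 (Plau) and 1 in the authors' deposited table (Sele). With 1 library left out, some genes near 0 also changed sign, with ranges of -0.0261 to 0.0490 for Abitram, -0.0153 to 0.102 for Pou3f4, -0.104 to 0.0420 for Krt8, -0.185 to 0.0860 for Mbp, -0.0583 to 0.163 for Inip and -0.0629 to 0.0750 for Nabp2. Where no value shows it, the cause was not tested. The small read numbers of Flt1, Vegfc, Vegfd and Pgf limit what can be said of them, and 3 libraries a group limit all of it.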
